A study of Mus musculus with 18 samples.

Results

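The receptors that use the common gamma chain were examined in regulatory T cells (Tregs, CD4+ T cells that express the transcription factor Foxp3 and restrain other lymphocytes). The genes were chosen by name: Il2ra, Il2rb, Il2rg, Il7r, Il4ra, Il15ra, Il21r and Il9r, that is, 8 of the 50600 gene identifiers in the count table, and all 8 passed the filter on low counts in both tissues. RNA-seq libraries covered 18 C57BL/6 mice, with 1 library of FACS-purified Foxp3+ Tregs from each, and compared CD25 KO with WT cells in thymus (5 against 5) and spleen (4 against 4). Levels are given as CPM, a gene's counts set against the total of its library, after TMM scaling of all 18 libraries to each other, and a change is called where edgeR's quasi-likelihood test gave a Benjamini-Hochberg adjusted p under 0.01 over all genes tested.

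Thymic CD25 KO Tregs came from “cured” CD25 flox/Foxp3-YFP/Cre mice, 3 to 4 weeks old, in which Cre is expressed from the Foxp3 locus and which had received WT splenocytes as neonates. Their WT controls were Foxp3/RFP reporter mice of the same age, so the genotypes also differed in the Foxp3 reporter allele, and the injection is stated for the KO mice alone. Splenic CD25 KO Tregs were YFP+ cells of CD25 flox/Foxp3eGFP-Cre-ERT2/R26Y mice, in which tamoxifen given at 7 to 10 weeks of age activates Cre and the YFP reporter in Foxp3+ cells. They were harvested 10 to 14 days later, beside CD25 WT reporter controls that had also been induced. Cre can act in the thymic model from the time a cell expresses Foxp3, and in the splenic model only after tamoxifen, in grown mice. Tissue, age, mouse model and the date in the library names changed together, so that a difference between thymus and spleen cannot be told apart from these.

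CD25, the product of Il2ra, captures IL-2 and forms the high-affinity receptor with CD122 (Il2rb) and the common gamma chain CD132 (Il2rg). CD122 and CD132 carry the signal through JAK1 and JAK3 to STAT5, and the same pair serves IL-15, which is held by the IL-15 receptor alpha chain (Il15ra). The other alpha chains of the family, for IL-7 (Il7r), IL-4 (Il4ra), IL-21 (Il21r) and IL-9 (Il9r), each pair with the common gamma chain. Tregs are known for high CD25, for low CD127 (the product of Il7r) and for their dependence on IL-2.

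The allele in both models removes exon 4 of Il2ra on Cre recombination, and the sequence is shown because the count table cannot see that deletion directly. Il2ra (ENSMUSG00000026770.5) lies on the plus strand of chromosome 2, from 11642807 to 11693193 in GRCm38. Its exon 4 is at chr2:11680210-11680425 and is wholly coding, with 216 bases or 72 codons. Capitals mark exon 4, and lower case marks 12 bases of exon 3 before and 12 bases of exon 5 after it in the spliced transcript.
Il2ra exon 4: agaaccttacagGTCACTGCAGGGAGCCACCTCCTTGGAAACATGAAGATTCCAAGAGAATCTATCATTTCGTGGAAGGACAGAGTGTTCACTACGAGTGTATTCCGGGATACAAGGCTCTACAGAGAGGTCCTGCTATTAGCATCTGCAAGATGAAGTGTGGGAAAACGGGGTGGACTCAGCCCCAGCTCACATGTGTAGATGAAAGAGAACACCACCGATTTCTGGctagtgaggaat
Exon 4 makes up 4.90% of the 4412 bases of the full-length transcript. A transcript that lacks it keeps its other exons and still adds to the gene's count, so the Il2ra count gives the amount of Il2ra RNA and not the amount that codes for intact CD25.

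Il2ra RNA was lower in every CD25 KO library than in every WT library of its tissue, but it was not lost. In thymic WT mice 1 to 5 its level was 664, 652, 524.5, 682 and 544 CPM, and in thymic CD25 KO mice 1 to 5 it was 105, 279.9, 96.1, 234 and 95.9 CPM. KO mice 2 and 4 stood above the other 3, at 45.6% and 38.1% of the WT mean against 15.6% to 17.1%. The mean fell from 613 ± 73.2 to 162 ± 88.1 CPM (SD, n = 5 and 5), a log2 fold change of -1.90 (SE 0.298, adjusted p = 0.00239, edgeR's quasi-likelihood test). In splenic WT mice 1 to 4 the level was 537, 488, 532 and 539 CPM, and in splenic CD25 KO mice 1 to 4 it was 191, 208, 168 and 179 CPM. The 4 KO mice were close to each other, and the log2 fold change was -1.49 (SE 0.0651, adjusted p = 1.39e-09, edgeR). The size of the fall was not called different between the tissues, with a difference of 0.43 (SE 0.342, adjusted p = 0.408, edgeR).

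Il2rb (ENSMUSG00000068227.8), on chromosome 15 and encoding the signalling beta chain shared by IL-2 and IL-15, fell in the thymus along with Il2ra. Thymic WT mice 1 to 5 had 659.7, 718, 543.5, 650.5 and 589.5 CPM, and thymic CD25 KO mice 1 to 5 had 336, 450.2, 325, 404 and 285 CPM. The groups did not overlap, and KO mice 2 and 4 were again the highest of the 5. The log2 fold change was -0.79 (SE 0.118, adjusted p = 0.00201, edgeR), which left 56.9% of the WT mean. In the spleen, WT mice 1 to 4 had 731, 747, 718 and 764 CPM and CD25 KO mice 1 to 4 had 632, 705, 626 and 629.6 CPM. These groups did not overlap either, but the change was small and did not pass the threshold (log2 fold change -0.19, SE 0.0535, adjusted p = 0.0223, edgeR).

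The Il2rb effect differed between the tissues by 0.62 on the log2 scale (SE 0.144, adjusted p = 0.00624, edgeR), with the deeper fall in the thymus. This call was lost in 14 of the 18 fits that left out 1 mouse, with adjusted p up to 0.0235, and with upper-quartile scaling (0.55, adjusted p = 0.011). The splenic change passed the threshold with upper-quartile scaling (adjusted p = 0.00522), in DESeq2 (adjusted p = 0.00342) and without CD25 KO mouse 2 (adjusted p = 0.00668, edgeR). It stayed uncalled in 12 of 16 alternatives. Among these were 1 fit of all 18 samples (adjusted p = 0.307, edgeR) and removal of the GC trend (adjusted p = 0.0742, edgeR).

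Il2rg (ENSMUSG00000031304.18), the common gamma chain itself, on chromosome X, was not called between CD25 KO and WT in either tissue. Its level was 190.4, 219.8, 216, 180.4 and 208 CPM in thymic WT mice 1 to 5 and 192, 177, 175, 175 and 172.5 CPM in thymic CD25 KO mice 1 to 5. The groups overlapped through KO mouse 1, and the log2 fold change of -0.17 was not called (SE 0.0576, adjusted p = 0.0506, edgeR). Splenic WT mice 1 to 4 had 255, 272.5, 282 and 267 CPM, and splenic CD25 KO mice 1 to 4 had 275, 290.2, 289.7 and 272 CPM. These too overlapped (log2 fold change 0.07, SE 0.0488, adjusted p = 0.386, edgeR). The difference of 0.25 between the tissues was not called (SE 0.081, adjusted p = 0.0377, edgeR). Gm20489, an annotated gene that overlaps Il2rg on the same strand, had at most 10 counts in any library. How reads over both genes were counted is not given, so this low count does not show that Il2rg kept all its reads.

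**Figure D1:**
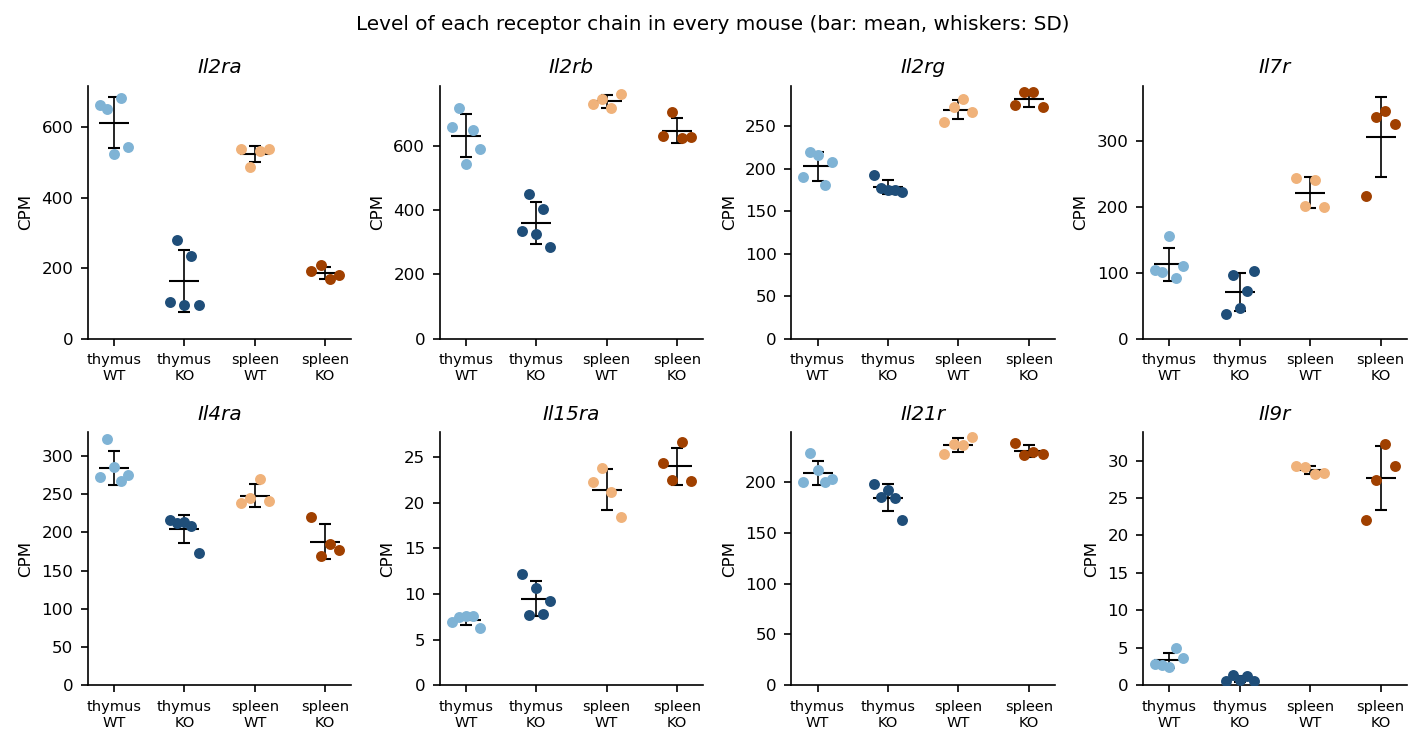
Level of each of the 8 receptor chains in CPM (linear axis from 0) in thymic WT, thymic CD25 KO, splenic WT and splenic CD25 KO Tregs; each point is 1 mouse, the bar is the mean and the whiskers the SD (n = 5, 5, 4 and 4). Il2ra lies between 488 and 682 CPM in WT mice and between 95.9 and 279.9 CPM in CD25 KO mice and Il9r is above 22 CPM in all splenic mice and below 5 CPM in all thymic mice.

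Il15ra (ENSMUSG00000023206.16), whose product binds IL-15 and presents it to CD122 and CD132, lies on the same strand of chromosome 2 as Il2ra, from 11705290 to 11734317. It was among the chains at the lowest level. In the thymus, WT mice 1 to 5 had 6.98, 7.44, 7.59, 7.54 and 6.28 CPM, and CD25 KO mice 1 to 5 had 12.2, 7.70, 10.6, 7.75 and 9.19 CPM. All KO mice were above all WT mice, the lowest of them, mice 2 and 4, by a narrow margin, and the log2 fold change of 0.42 was not called (SE 0.134, adjusted p = 0.0405, edgeR). In the spleen, WT mice 1 to 4 had 22.2, 23.9, 21.2 and 18.5 CPM and CD25 KO mice 1 to 4 had 24.4, 22.5, 26.7 and 22.4 CPM. The groups overlapped (log2 fold change 0.16, SE 0.0861, adjusted p = 0.225, edgeR), and the difference between tissues, -0.24, was not called (SE 0.169, adjusted p = 0.336, edgeR).

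Il7r (ENSMUSG00000003882.4), the alpha chain for IL-7 and for thymic stromal lymphopoietin, on the minus strand of chromosome 15, had a mean below WT in thymic and above WT in splenic CD25 KO Tregs, as Il2rg had, and neither change of Il7r passed the threshold. Its RefSeq promoter window is the one, among the 7 members that have a window in the table, that holds a STAT5-type motif, TTCNNNGAA, which reads the same on both strands. The motif and 10 bases on either side, at chr15:9530000-9530028 (GRCm38.p6, minus strand), are shown with the motif in capitals.
Il7r promoter: gttcaggagcTTCAGGGAAtaccaagatg
The motif begins at position -142 relative to the RefSeq start site, and GENCODE places the 5′ end of the gene farther upstream, at 9530176. Windows of 300 bases held the motif in 8.30% of 32851 promoters. No binding was measured, and Il2rb has no window in the table.

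In thymic WT mice 1 to 5 the Il7r level was 104, 102, 155, 91.8 and 110.0 CPM, and in thymic CD25 KO mice 1 to 5 it was 36.6, 96.2, 46.5, 71.7 and 103 CPM. The KO mice were spread widely, from 32.5% to 91.2% of the WT mean, and overlapped with WT (log2 fold change -0.65, SE 0.257, adjusted p = 0.0832, edgeR). In the spleen, WT mice 1 to 4 had 244, 201, 241 and 200.3 CPM and CD25 KO mice 1 to 4 had 216, 337, 346 and 326 CPM. KO mice 2, 3 and 4 were above all WT mice and KO mouse 1 was within the WT range. The log2 fold change of 0.47 narrowly missed the threshold (SE 0.116, adjusted p = 0.0107, edgeR). Without KO mouse 1 it was 0.60 and passed (adjusted p = 5.24e-05, edgeR), and it also passed with no filter on low counts (adjusted p = 3.43e-08, edgeR). The splenic change stayed uncalled in 13 of 16 alternatives. Among these were DESeq2 (adjusted p = 0.0259) and 1 fit of all 18 samples (adjusted p = 0.254, edgeR). The difference between the tissues was 1.14 (SE 0.323, adjusted p = 0.0204, edgeR) and was not called. It passed with the GC trend removed (1.34, adjusted p = 0.0051), with no filter (adjusted p = 0.00898) and without thymic CD25 KO mouse 5 (1.31, adjusted p = 0.00604). The difference stayed uncalled in 21 of 26 alternatives.

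Il4ra (ENSMUSG00000030748.9), the alpha chain for IL-4 and, with IL-13Rα1, for IL-13, on chromosome 7, fell in both tissues. Thymic WT mice 1 to 5 had 272, 323, 286, 267 and 275 CPM, and thymic CD25 KO mice 1 to 5 had 216, 212, 213, 209 and 172 CPM. All KO mice were below all WT mice, with KO mouse 5 the lowest, and the log2 fold change was -0.46 (SE 0.0698, adjusted p = 0.00213, edgeR). Splenic WT mice 1 to 4 had 238, 244.5, 269.6 and 241 CPM, and splenic CD25 KO mice 1 to 4 had 221, 169.6, 185 and 177 CPM. The groups were again apart (log2 fold change -0.40, SE 0.0727, adjusted p = 0.00122, edgeR). The tissues differed by 0.08 (SE 0.113, adjusted p = 0.68, edgeR). Il2ra and Il4ra are both listed in a figure of the study among transcripts selected on these same libraries, so that their direction is not independent evidence. Gm44876, an antisense gene within Il4ra, had 13 to 46 counts in each library, against at least 3282 for Il4ra. Whether reads over both of these genes were counted or dropped is not given either.

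Il21r (ENSMUSG00000030745.9), the alpha chain for IL-21, is on the same strand of chromosome 7 as Il4ra and was not called between CD25 KO and WT in either tissue. Its level was 200.3, 229, 212, 201 and 204 CPM in thymic WT mice 1 to 5 and 198.5, 185, 192.5, 185 and 163 CPM in thymic CD25 KO mice 1 to 5. The groups were apart by a narrow margin, and the log2 fold change of -0.16 was not called (SE 0.057, adjusted p = 0.0568, edgeR). Splenic WT mice 1 to 4 had 227.5, 238, 237 and 245 CPM, and splenic CD25 KO mice 1 to 4 had 239, 227, 230.3 and 227.5 CPM. These overlapped (log2 fold change -0.04, SE 0.0462, adjusted p = 0.661, edgeR), and the tissues differed by 0.14 (SE 0.0775, adjusted p = 0.213, edgeR).

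Il9r (ENSMUSG00000020279.10), the alpha chain for IL-9, on chromosome 11, had the largest gap between its splenic and thymic log2 fold changes among the 8 chains. Thymic WT mice 1 to 5 had 2.76, 2.68, 2.47, 4.98 and 3.59 CPM, and thymic CD25 KO mice 1 to 5 had 0.55, 1.38, 0.65, 1.22 and 0.53 CPM. These rest on 55 to 109 counts in each WT and 10 to 30 counts in each KO library. All KO mice were below all WT mice, with KO mice 2 and 4 the highest KO mice once more, and the log2 fold change was -1.89 (SE 0.306, adjusted p = 0.00266, edgeR). In the spleen, WT mice 1 to 4 had 29.3, 29.1, 28.2 and 28.3 CPM and CD25 KO mice 1 to 4 had 22.03, 27.4, 32.2 and 29.4 CPM. The KO mice lay on both sides of the WT mice (log2 fold change -0.05, SE 0.0905, adjusted p = 0.763, edgeR). The difference between the tissues was 1.84 (SE 0.302, adjusted p = 0.000388, edgeR), and it was called in all 26 alternatives run, with adjusted p of at most 0.00145.

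Counted together, 4 of the 8 chains were called in the thymus, all lower in CD25 KO: Il2ra, Il2rb, Il4ra and Il9r. Of all 16986 genes tested there, 6.16% were called and 2.99% were called lower. Groups did not overlap for 6 chains, against 16.4% of all genes, and the median log2 fold change was -0.56 for the chains and -0.002 for all genes. No chain was called higher, where 3.17% of all genes were. In the spleen 2 chains, Il2ra and Il4ra, were called lower, where 9.45% of 17463 genes were called and 3.55% were called lower. None was called higher there by edgeR, against 5.9% of all genes, and the median log2 fold change of the chains was -0.04 against -0.006 for all genes. There, 3 chains had groups that did not overlap, against 20.4% of all genes. The difference between tissues was called for 2 chains, Il2rb and Il9r, both with the higher log2 fold change in the spleen, where 6.98% of 18686 genes were called and 4.5% in that direction. Il2ra is itself the target of the deletion, and a figure of the study lists Il2ra and Il4ra from these same libraries. The counts of chains called lower in either tissue include both and are therefore not independent evidence.

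**Figure D2:**
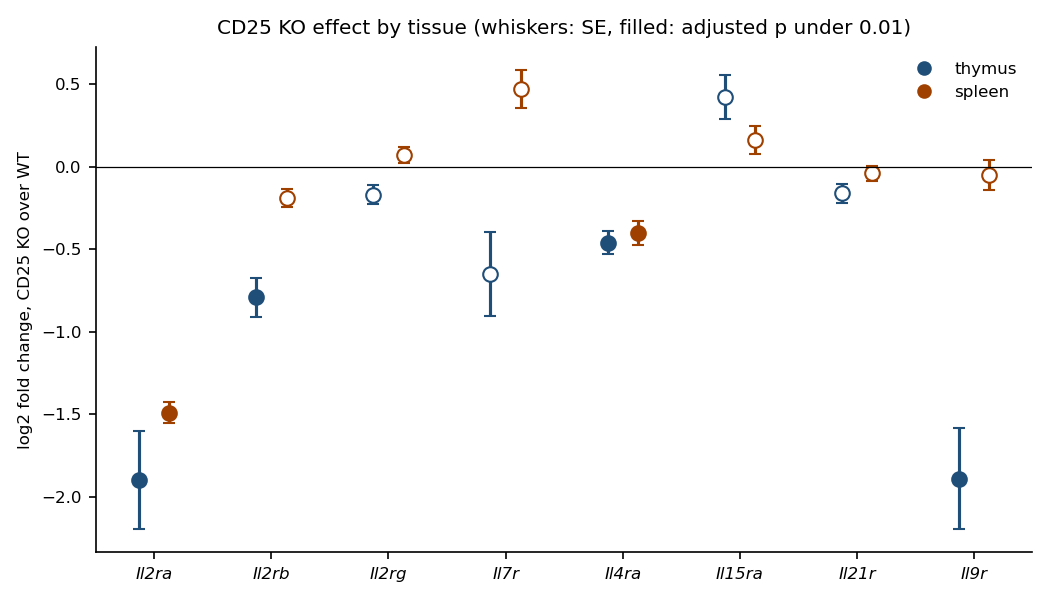
Log2 fold change of CD25 KO over WT for each chain in thymus and spleen; whiskers are the SE, and filled points passed an adjusted p of 0.01 in edgeR's quasi-likelihood test. Il2ra and Il4ra are filled in both tissues, Il2rb and Il9r in the thymus alone, and Il7r lies at -0.65 in the thymus and 0.47 in the spleen without passing in either.

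In thymic CD25 KO Tregs the mice ranked alike for several chains. Mice 2 and 4 held the 2 highest levels of Il2ra, Il2rb and Il9r and the 2 lowest of Il15ra, and for Il7r the highest was mouse 5. The summed level of 10 effector Treg markers (Cd44, Icos, Klrg1, Tigit, Irf4, Prdm1, Il10, Gzmb, Fgl2 and Mki67) was 742 and 585 CPM in mice 2 and 4 and 219 to 284 CPM in the other 3, with 467 to 710 CPM in thymic WT mice. A single marker reached 10977 counts in a thymic CD25 KO library and 10146 in a thymic WT library. Such a sum can therefore rest largely on a single gene and does not show that the 10 markers moved together. The part of this sum in the receptor levels was not tested. In splenic CD25 KO mice, mouse 2 had the highest Il2ra and Il2rb levels and mouse 1 the lowest Il7r and Il9r and the highest Il4ra levels.

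**Figure D3:**
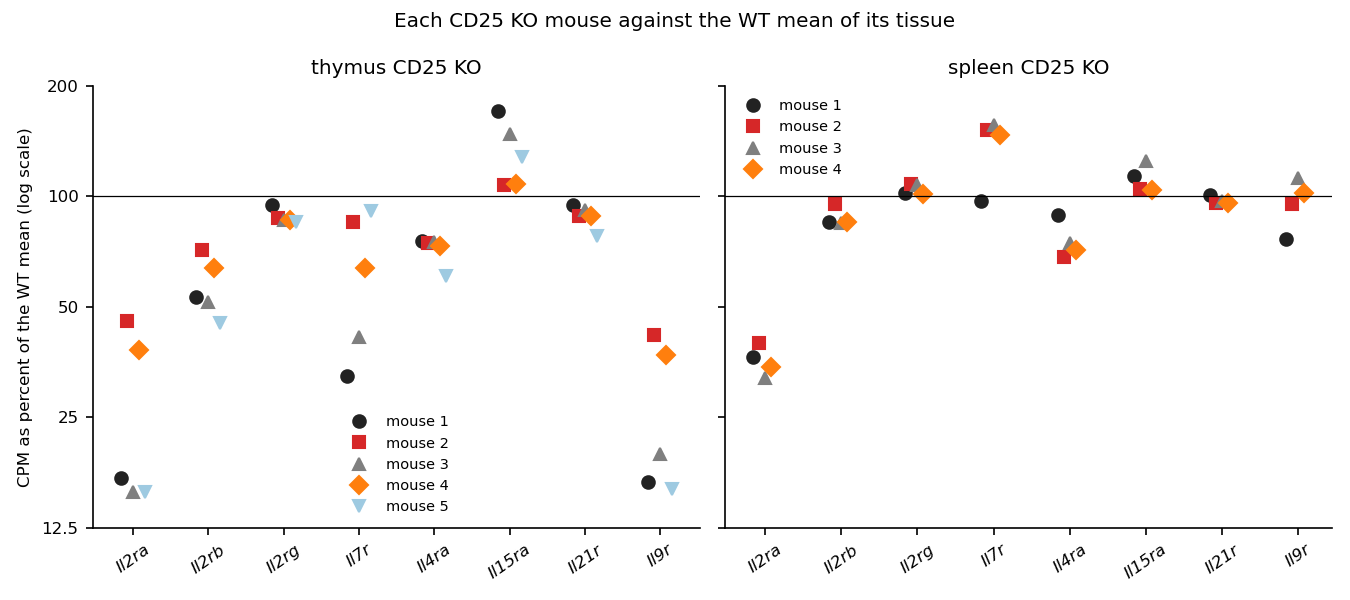
CPM of each chain in each CD25 KO mouse as percent of the WT mean of the same tissue (log axis, line at 100 percent), with 1 symbol per mouse number in each tissue. In the thymus, mice 2 and 4 lie highest for Il2ra (45.6% and 38.1%), Il2rb and Il9r and lowest for Il15ra, and in the spleen mouse 1 stands apart for Il7r at 97.4% against 147% to 156%.

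Levels also differed between the tissues in the absence of the deletion. In WT Tregs, 5 of the 8 were called higher in spleen than in thymus, where 40.4% of all genes were called and 21% were higher in spleen. Il9r differed most, at 28.7 ± 0.564 CPM in spleen (SD, n = 4) and 3.30 ± 1.03 CPM in thymus (SD, n = 5), a log2 difference of 3.12 (SE 0.187, adjusted p = 2.6e-11, edgeR). Il15ra followed with 1.58 (SE 0.12, adjusted p = 1.03e-09), then Il7r with 0.98 (SE 0.226, adjusted p = 0.00116) and Il2rg with 0.41 (SE 0.057, adjusted p = 5.32e-06), in the same edgeR fit. Il21r was called at 0.18 (adjusted p = 0.00931, edgeR), a call lost in 19 of 26 alternatives, with adjusted p up to 0.0508. Il2ra (-0.23, adjusted p = 0.451), Il2rb (0.23, adjusted p = 0.0673) and Il4ra (-0.20, adjusted p = 0.0439) were not called by edgeR, although Il4ra passed with the GC trend removed (-0.29, adjusted p = 0.000382) and without splenic CD25 KO mouse 1 (-0.23, adjusted p = 0.0082), a mouse that enters through the shared estimate of the spread.

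The order of the 4 group means separated the chains into patterns. For Il2ra and Il4ra both WT groups were above both CD25 KO groups, and neighbouring groups of the same genotype overlapped. For Il2rg, Il7r, Il15ra, Il21r and Il9r both splenic groups were above both thymic groups, with the splenic groups overlapping each other, and of these Il2rg, Il7r, Il15ra and Il9r had no overlap between the lower splenic and the higher thymic group. Il2rb fell between these, from 740 CPM in splenic WT through 648 CPM in splenic CD25 KO and 632 CPM in thymic WT, which overlapped, to 360.0 CPM in thymic CD25 KO.

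To compare chains with each other, CPM was divided by the exonic length of each gene in kilobases. That length joins the exons of all annotated transcripts, for Il2ra 5711 bases against 4412 in its full-length transcript. Ranks and shares of the chains depend on this choice. On this per-length scale Il2rb had the highest mean of the chains in every group, with a share of the 8-chain sum of 30.9% in WT and 28.4% in CD25 KO thymus and of 31.5% in either genotype of the spleen. In thymic CD25 KO mice 1 and 5, Il2rg was above Il2rb, at 80.5 against 78.3 and 72.3 against 66.5 CPM per kb. Il2ra was second in thymic WT with 22.5% ± 2.14 (SD, n = 5) and lay on average behind Il2rb, Il2rg, Il21r and Il4ra in thymic CD25 KO with 9.30% ± 4.00 (SD, n = 5). In the spleen its share was 16.7% ± 0.668 in WT and 6.81% ± 0.566 in CD25 KO (SD, n = 4 and 4). The mean share of Il2rg was 17.9% in WT and 25.7% in CD25 KO thymus and 20.6% and 24.6% in spleen, while its level in CPM was not called changed in either tissue. The share of Il7r was 5.10% and 5.18% in thymic WT and CD25 KO and 8.67% and 13.7% in splenic WT and CD25 KO. Il15ra and Il9r were the smallest contributors, each at most 1.35% in any library. The sum over the 8 chains was 477 ± 27 and 294 ± 34.3 CPM per kb in thymic WT and CD25 KO, and 548 ± 7.57 and 479 ± 17.7 CPM per kb in splenic WT and CD25 KO (SD, n = 5, 5, 4 and 4). These groups did not overlap within either tissue, as a description with no test.

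**Figure D4:**
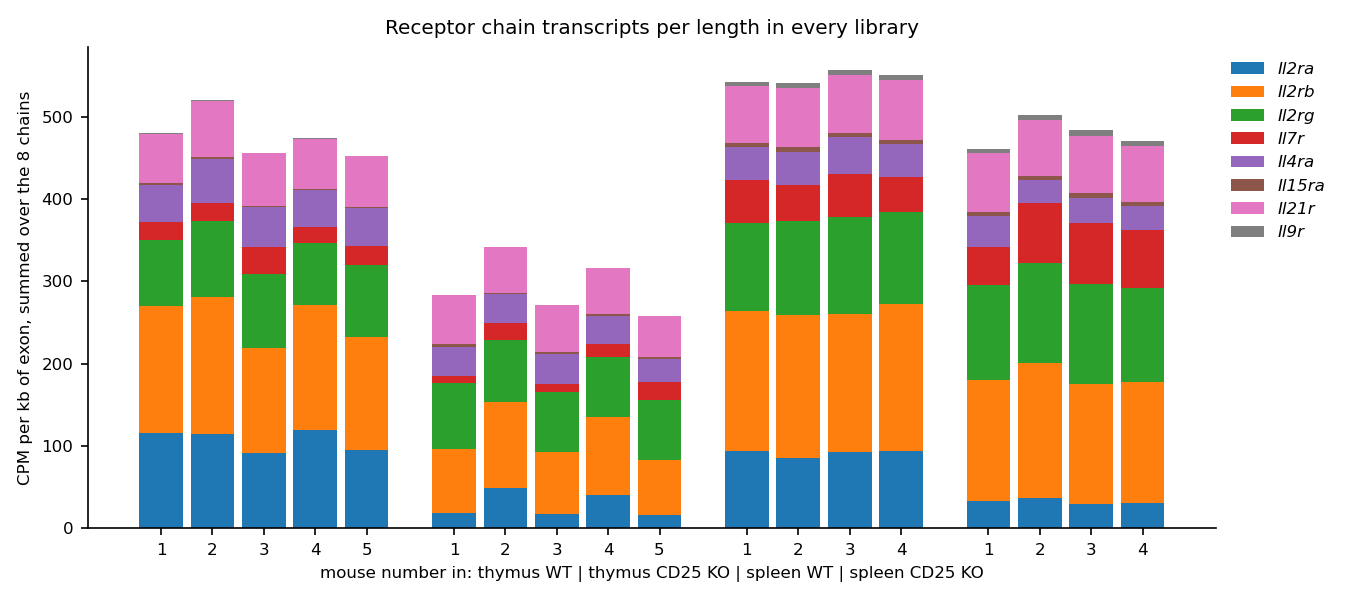
Per-length level (CPM per kb of exon) of the 8 chains stacked for each of the 18 libraries, grouped as thymic WT, thymic CD25 KO, splenic WT and splenic CD25 KO. The bars run from 453 to 520.2 in thymic WT, from 258 to 342 in thymic CD25 KO, from 541 to 557 in splenic WT and from 461 to 502 in splenic CD25 KO, with the Il2ra segment shrinking most.

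Ratios of counts within a library need no scaling between libraries. The ratio of Il7r to Il2ra, which sets the IL-7 receptor chain against CD25, had medians of 0.157 (WT) and 0.348 (CD25 KO) for the thymus, against 0.433 (WT) and 1.72 (CD25 KO) for the spleen. Every splenic CD25 KO library had more Il7r than Il2ra counts (ratios 1.13 to 2.06) and every splenic WT library fewer (0.372 to 0.454). In the thymus, 1 of the 5 CD25 KO libraries, mouse 5, had more Il7r than Il2ra counts, with a ratio of 1.07. The ratio of Il2ra to Il2rb had medians of 0.965 (WT) and 0.336 (CD25 KO) for the thymus and of 0.720 (WT) and 0.290 (CD25 KO) for the spleen. Il2rb to Il2rg had medians of 3.27 and 1.86 in thymic WT and CD25 KO, where the highest KO library, at 2.54, overlapped with the lowest WT library, at 2.52, and of 2.80 and 2.31 in the spleen, where the groups were apart. The ratio of Il15ra to Il2rb was higher in every thymic CD25 KO library (0.0171 to 0.0365) than in every thymic WT library (0.0104 to 0.0140), and in the spleen the lowest KO library, at 0.0319, overlapped with the highest WT library, at 0.0320.

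**Figure D5:**
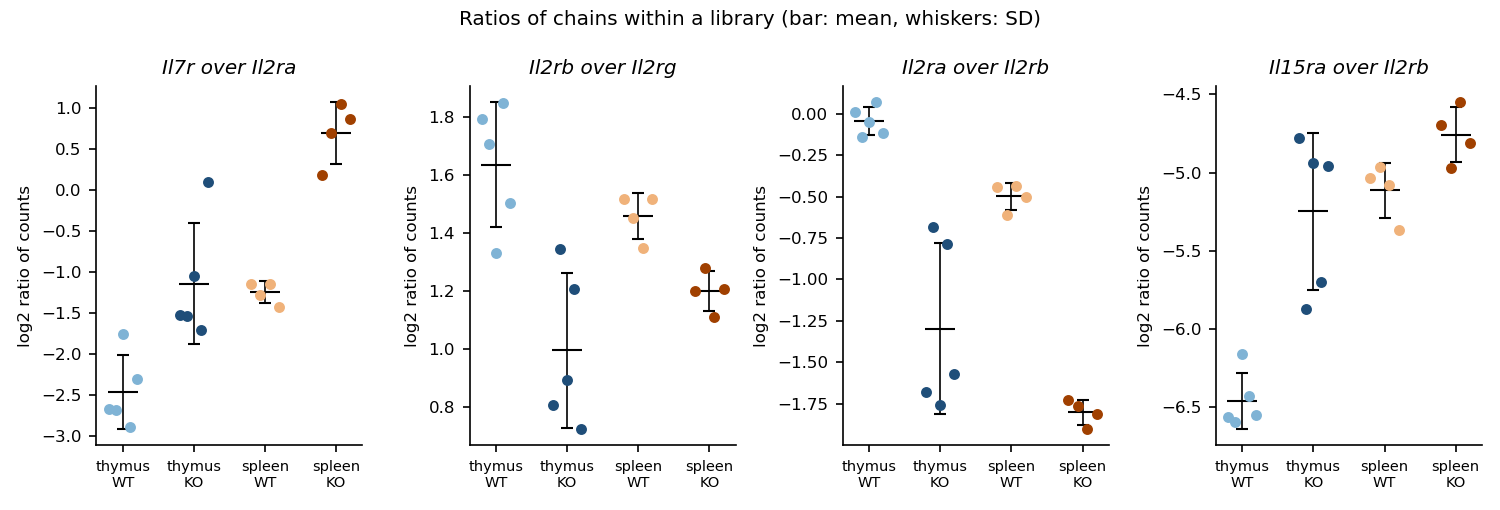
Log2 ratio of the counts of a pair of chains within each library, for Il7r over Il2ra, Il2rb over Il2rg, Il2ra over Il2rb and Il15ra over Il2rb; points are mice, bars are means and whiskers are SDs (n = 5, 5, 4 and 4). Il7r over Il2ra is above 0 in all splenic CD25 KO mice, from 0.18 to 1.04, and below 0 in all splenic WT mice, from -1.43 to -1.14.

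The cytokines that these receptors bind were rare in the sorted Tregs. Il9 had 0 counts in all 18 libraries, which allows a level of up to 0.163 CPM, and Il2 had at most 20 counts in any library. Of the 6 ligands, 2 passed the low-count filter in the thymus and neither was called by edgeR or DESeq2 or had an unadjusted p under 0.05, and 5 passed in the spleen, of which Il4 and Il21 rose. Il21 went from 3.91 ± 0.955 to 11.3 ± 2.76 CPM (SD, n = 4 and 4; log2 fold change 1.53, SE 0.187, adjusted p = 3.93e-05, edgeR) and Il4 from 1.92 ± 0.739 to 4.77 ± 0.905 CPM (SD, n = 4 and 4; log2 fold change 1.31, SE 0.233, adjusted p = 0.00104, edgeR). The KO mice were above the WT mice for both ligands, while the receptors differed: Il4ra fell and Il21r was not called. Of all genes tested in the spleen, 5.9% were called higher. The study's text also reports the Il4 rise from these same libraries, so its direction is not independent evidence. Of the partner chains outside the family, Il13ra1 rose in the spleen from 2.49 to 4.37 CPM (log2 fold change 0.81, SE 0.172, adjusted p = 0.0039, edgeR), and Crlf2, which joins Il7r in the receptor for thymic stromal lymphopoietin, was not called in either tissue.

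Downstream of the chains, none of the 6 kinase and STAT genes (Jak1, Jak3, Stat3, Stat5a, Stat5b and Stat6) was called in either tissue by edgeR, although 1 in each tissue had an unadjusted p under 0.05 and DESeq2 called 1 in the thymus. The tissues differed in the effect of CD25 loss for 1 of them, Stat3, by 0.35 (spleen minus thymus, SE 0.0783, adjusted p = 0.00493, edgeR). The median log2 fold change of the 6 genes was -0.07 in thymus and 0.08 in spleen, and their summed level was 2375 to 2696 CPM for WT against 2359 to 2487 CPM for CD25 KO thymus. The feedback inhibitors Cish, Socs1, Socs2 and Socs3, which are induced by cytokine signalling and restrain it, were called lower in 4 of 4 cases in thymus (median log2 fold change -0.88) and 3 of 4 in spleen (median -0.56). Beside these counts, and those of the IL-2 and STAT5 targets below, 2.99% of all genes were called lower in thymus and 3.55% in spleen. Socs2 fell by 3.20 on the log2 scale in the thymus (SE 0.429, adjusted p = 0.00114, edgeR) and by 0.98 in the spleen (SE 0.097, adjusted p = 5.06e-06, edgeR). The difference between the tissues was called for 3 of the 4, Socs2 (2.22, adjusted p = 0.00163), Socs3 (0.77, adjusted p = 0.000153) and Socs1 (0.48, adjusted p = 0.00243), all with the lower log2 fold change in the thymus in edgeR. Of all genes, 4.5% were called for the difference in that direction. Of 5 genes known as IL-2 and STAT5 targets, 3 were called lower in thymus (Myc, Foxp3 and Lta; median of the 5 -0.74) and 4 in spleen (these and Bcl2; median -1.01). Bcl2, a survival factor, fell by 1.01 in the spleen (adjusted p = 3.95e-08, edgeR) and had a log2 fold change of 0.01 in the thymus (adjusted p = 0.926, edgeR). Among the 5 targets the difference between the tissues went both ways in edgeR. The log2 fold change was called lower in the spleen for 2 and higher for 1, against 2.49% and 4.5% of all genes. The study's text singles out Lta, Myc, Foxp3, Socs1, Socs2, Cish and, in the spleen, Bcl2 from these same libraries. Their direction is therefore not independent evidence.

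A second annotated gene within the Il2ra locus was lower in CD25 KO Tregs, and the change passed the threshold in the spleen but not in the thymus. Gm37881, of unsettled biotype in GENCODE, lies on the same strand at chr2:11683126-11683546, which begins at the base after exon 6 of Il2ra. Its mean level was 13.1 ± 2.48 CPM for WT against 4.81 ± 2.70 CPM for CD25 KO thymus (SD, n = 5 and 5), and 9.26 ± 1.54 and 3.68 ± 0.346 CPM in spleen (SD, n = 4 and 4). The groups did not overlap in either tissue. The log2 fold change was -1.41 in the thymus (SE 0.325, adjusted p = 0.0116, edgeR) and -1.33 in the spleen (SE 0.141, adjusted p = 1.02e-05, edgeR). Reads that belong to Il2ra RNA and to this gene cannot be told apart here.

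The libraries carried the defining markers of Tregs, with Foxp3 at a mean of 503 CPM (WT) or 297 CPM (CD25 KO) in the thymus and no Treg identity marker (Foxp3, Ikzf2, Ctla4, Tnfrsf18, Cd4 and Cd3e) at 0. Other marker lists changed to different extents, and their part in the receptor levels was not tested. Each count below is to be read beside the 6.16% (thymus) and 9.45% (spleen) of all genes called. Effector Treg markers were called lower for 6 of the 9 tested in thymus (median log2 fold change -1.05) and higher for all 10 tested in spleen (median 1.01), where their sum was 575 to 640 CPM for WT against 1008 to 1139 CPM for CD25 KO. Markers of recirculating thymic Tregs were lower for 5 of 10 in thymus and higher for 8 and lower for 1 of 10 in spleen, with sums of 114 to 182 and 55.8 to 97.8 CPM in thymic WT and CD25 KO and of 580 to 714 and 1007 to 1108 CPM in splenic WT and CD25 KO. Central Treg markers were lower for 1 of 9 in thymus (median log2 fold change -0.01) and lower for 4 and higher for 1 of 9 in spleen. Markers of newly generated thymic Tregs were lower for 1 of 6 in thymus and higher for 1 of 6 in spleen, with a median log2 fold change of 0.10 in either tissue, and Treg identity markers were lower for 3 of 6 in thymus and lower for 1 and higher for 3 of 6 in spleen. Fewer cells of a type and less RNA per cell cannot be told apart in such libraries.

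Markers of other cells were low. B cell markers summed to 10.4 to 14.6 CPM over all thymic libraries, and to 29.8 to 36.2 CPM in splenic WT and 38.6 to 48.7 CPM in splenic CD25 KO, where 2 of 4 tested were called higher. Myeloid markers summed to 7.79 to 30.5 CPM in thymus and 17.6 to 29.6 CPM in spleen, with 1 of 5 called higher in spleen. NK cell markers summed to at most 6.97 CPM in thymus. In spleen they summed to 4.71 to 8.02 CPM for WT and 10.9 to 16.2 CPM for CD25 KO, with 1 of 2 called higher. Ncr1 was at 0 counts in thymic CD25 KO and in both splenic groups. Markers of double positive thymocytes and CD8 T cells summed to 40.0 to 172 CPM in thymic WT and 45.6 to 98.2 CPM in thymic CD25 KO, with none called by edgeR or DESeq2 and none at an unadjusted p under 0.05, and to at most 11.2 CPM in spleen, where Rag1 was at 0 counts.

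Across the 18 libraries, which share tissue, date in the library name and genotype in blocks, the genes most like each chain were found among 12911 genes by Pearson's r of log2 CPM, as a description. Il2ra was most like Lrrc32 (r = 0.978), which encodes GARP, a surface protein of activated Tregs, and Xxylt1 (r = 0.954). Il2rb was most like Socs2 (r = 0.983) and Glud1 (r = 0.970). Il9r was most like Pear1 (r = 0.993) and Entpd1 (r = 0.991), which encodes the ectonucleotidase CD39, and Il4ra was most like Cyth1 (r = 0.943) and Myc (r = 0.933). For Il2rg the genes were Sh3bgrl3 (r = 0.994) and Myl6 (r = 0.991), for Il7r Serinc3 (r = 0.969) and Fkbp5 (r = 0.965), for Il15ra Gm15411 (r = 0.983) and Nlrp1b (r = 0.980), and for Il21r Kcnab2 (r = 0.971) and Sept9 (r = 0.969). Among the chains themselves r ran from -0.43 for Il4ra and Il15ra to 0.93 for Il2rg and Il9r, and Il2ra was most like Il4ra (r = 0.81) and Il2rb (r = 0.75).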

How the data were processed

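RNA-seq was performed on total RNA of FACS-purified Tregs after depletion of ribosomal RNA. The authors aligned the paired-end reads to GRCm38 (mm10) with STAR 2.5.0b, counted them per gene of GENCODE M13 with featureCounts 1.5.0 and deposited the raw counts without normalization. How strand and multiply mapped reads were treated is not given in the sources used here, nor is it stated whether reads over overlapping genes were split. Symbols, positions and exonic lengths came from the later GENCODE M21 annotation of that build, in which 50376 of 50600 identifiers have a symbol. Promoter windows, 250 bases before to 50 after a start site, came from RefSeq (GRCm38.p6).

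Total counts per sample were 17239774 to 23993674 in thymus and 25258341 to 32639570 in spleen. Log2 CPM of replicates correlated at 0.972 to 0.994, and no samples held identical values. The floor of 3 counts was at most 0.163 CPM. Reads carry no molecular identifiers, so the floor covers counting error only.

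Each tissue was fitted on its own with edgeR 4.0.16 in R 4.3.3 (filterByExpr, TMM, quasi-likelihood test, Benjamini-Hochberg adjustment, threshold 0.01 as in the study). The study names DESeq2, run here as an alternative (DESeq2 1.42.0). The difference between tissues, and spleen against thymus in WT, came from 1 fit of all 18 samples. SEs were derived from the fold change and the F statistic. CPM values were computed on a common TMM scale of the 18 samples, and log2 CPM used a prior count of 2. On simulated thymic counts edgeR recovered 84% of genes changed 2-fold and 98% of those changed 4-fold, with 2 false calls among 16930 genes. For spleen the values were 92% and 100% with 10 among 17409, and for the difference 69% and 99% with 3 among 18570. The changed genes were drawn from those above a minimum mean count. These rates therefore do not cover low counts such as those of thymic Il9r, or changes smaller than 2-fold.

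The 8 chains, the 5 pathway lists and the 9 marker lists were chosen with earlier results of these data known. All chains were named in every comparison. Of each pathway list, the genes named are among the up to 3 called genes with the largest fold change in each tissue; the ligands Il2 and Il9, Crlf2, Gm37881, Gm44876, Gm20489, the tissue differences of Stat3, Socs1, Socs2 and Socs3 and the thymic value of Bcl2 are given in addition and were chosen after their values were seen. Marker lists are given as counts, summed CPM and markers at 0. For each chain, the 2 genes of highest correlation are named, among those whose average log2 CPM is 1 or more. The alternatives were DESeq2, normalization by RLE or by the upper quartile, no filter, at least 10 counts in every sample, a threshold of 0.05, removal of a GC trend (lowess span 0.3), 1 fit of all 18 samples, the thymic mouse number as a block, each mouse left out in turn and, for ratios, a pseudocount of 0.5.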

Additional observations from a re-analysis of the deposited data

Results flagged for a closer look

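In 6 of the 32 sets of samples examined (8 chains in 4 groups), the highest or lowest mouse stood apart from the others by more than Dixon's test allows at its 95% level, where chance alone flags about 1 in 20. Il2ra was at 488.4 CPM in splenic WT mouse 2, the lowest of 4. Il2rb was at 705.3 CPM in splenic CD25 KO mouse 2, the highest of 4. Il2rg was at 192.0 CPM in thymic CD25 KO mouse 1, the highest of 5. Il7r was at 155.3 CPM in thymic WT mouse 3, the highest of 5, and at 215.7 CPM in splenic CD25 KO mouse 1, the lowest of 4. Il4ra was at 172.4 CPM in thymic CD25 KO mouse 5, the lowest of 5.

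The CD25 KO effect differed between spleen and thymus for 2 chains in edgeR's quasi-likelihood test of the difference itself. For Il2rb the log2 fold change was higher in the spleen by 0.62 (adjusted p = 0.00624), and for Il9r by 1.84 (adjusted p = 0.000388). The Il2rb call was lost in 15 of 26 alternatives, while the Il9r call held in all 26.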

How the results depend on the processing

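Under every alternative run, the thymic log2 fold changes of the 8 chains kept their direction and Il2ra, Il2rb, Il4ra and Il9r stayed called, as did Il2ra and Il4ra in the spleen. The number of genes called in the thymus was 1047, and 2763 with DESeq2, 3951 at a threshold of 0.05, 2881 with all 18 samples in 1 fit and 371 to 1087 without 1 mouse. In the spleen it was 1651, and 3001 at 0.05, 795 in 1 fit and 1099 to 1723 without 1 mouse. For the difference it was 1305, and 2188 with DESeq2, 3149 at 0.05 and 817 to 1489 without 1 mouse. For spleen WT against thymus WT it was 7557, and 6690 to 8040 without 1 mouse. The chains called were 4 in the thymus without any 1 mouse, 2 to 3 in the spleen (4 at 0.05), 1 to 3 for the difference (4 at 0.05, 1 with upper-quartile scaling) and 4 to 5 for WT spleen against thymus. The cause of these shifts was not tested.

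Values near 0 that changed sign were not called: splenic Il21r with the GC trend removed (0.008), splenic Il9r without CD25 KO mouse 1 (0.044; -0.125 to 0.044 without any 1 mouse) and the Il4ra difference without splenic CD25 KO mouse 1 (-0.017; -0.017 to 0.118 without any 1 mouse).

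The numbers of the thymic mice did not pair the samples, since deviations of same-numbered mice correlated at -0.238 to 0.144; with the number as a block, 209 genes were called in the thymus. Splenic labels share no numbers. Leaving out thymic CD25 KO mice 2 and 4 together was chosen after seeing the data, by their Il2ra level, and is a description only: 2008 genes and 5 chains were called in the thymus, and 2307 genes and 4 chains for the difference.

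Low counts limit Il9r in thymic CD25 KO (10 to 30 counts) and the ligands. Ratios of chains moved by less than the spread between mice with a pseudocount of 0.5.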
